A study of Mus musculus with 4 samples.

Results

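The Trim5, Trim12, Trim30 and Trim34 genes lie side by side on mouse chromosome 7, with Trim3 a little further along. These 10 genes (Trim34a, Trim5, Trim12a, Trim34b, Trim12c, Trim30b, Trim30c, Trim30a, Trim30d and Trim3), of 18276 in the deposited table, were found by matching Ensembl identifiers to symbols. The cluster was chosen from these data with the differences between genotypes already known, so its values are a description and carry no test. Close relatives in the cluster did not change together: Trim5, Trim12a, Trim30d and Trim34a were higher in cells with floxed Ptip, by 3.04-fold to 65.9-fold in mean CPM. Trim12c, Trim30a, Trim30c and Trim34b were lower there in every library, by smaller factors, while Trim30b overlapped between genotypes and Trim3 was slightly higher. Of these lower genes limma, the test over all genes, called only Trim30c. Groups that did not overlap were found in 55.1% of all genes tested. The counts of Trim34a and Trim34b are uncertain, as the pair shares much sequence.

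Tripartite motif (TRIM) proteins carry a RING domain with ubiquitin ligase activity, a B-box and a coiled coil, and those of this cluster mostly end in a B30.2/SPRY domain that recognises the target. TRIM5 proteins are known for binding the capsids of incoming retroviruses and for driving the kinase TAK1, and many genes of the family are induced by interferon through response elements in their promoters. Mouse TRIM30 (Trim30a) is known for limiting TAK1 signalling through TAB2 and TAB3 and for restraining the NLRP3 inflammasome in macrophages. Rodents carry several tandem copies of the Trim5, Trim12 and Trim30 genes, and copies of such recent origin can be hard to tell apart in short reads.

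Poly(A) RNA was measured in osteoclast progenitors, the bone marrow precursors of the cells that resorb bone. They were sorted from fresh mouse marrow as cells that lacked B220, CD3 and Mac-1 and carried CD115. One group, Ptip_KO (n = 2), came from Ptip flox/flox Mx-1Cre mice and the other, WT (n = 2), from Mx-1Cre mice with unaltered Ptip, which encodes a protein of the enzyme complexes that methylate a lysine of histone H3. All 4 samples carried Mx-1Cre, a Cre driver that interferon switches on in blood cells and in other tissues, and all had the mixed strain label B6;129. Neither the treatment that induced Cre nor the age or sex of the mice is given in the sources used here. Which parental strain's copy of the cluster each sample carried was not tested. The replicates are described as independent, but no label says that they were separate animals, so any p-value measures only the spread between these samples.

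Ptip (gene symbol Paxip1) had 5.10 and 3.73 CPM (normalised counts per 1000000 reads) in Ptip_KO, against 106 and 103 in WT. The libraries held from 67592972 to 77773478 reads, so that a gene with no read could still be at up to 3 reads, or 0.0380 to 0.0428 CPM, by counting error alone. Csf1r, which encodes CD115, was at 606 to 825 CPM in all 4, and Itgam, which encodes a chain of Mac-1, at 35.1 to 42.1 CPM. Of 12 genes taken as markers of other cells, Alas2 (red cells), Adgre1 (macrophages), Flt3 and Itgax (dendritic cells) were called lower in Ptip_KO by limma and none higher. Whether the sorted progenitors themselves express these 12 genes was not tested, so their levels do not measure other cells alone. In the order Ptip_KO 1 and 2, then WT 1 and 2, summed levels were 428, 592, 1057 and 3048 CPM for 2 red cell markers, 49.4, 39.6, 85.3 and 94.3 for 2 dendritic cell markers, and 8.67, 6.79, 90.5 and 51.7 for Adgre1 alone. The 3 granulocyte markers summed to 7608 to 10742 CPM, mostly from Mpo, at 5885 to 8481 CPM with overlapping groups. S100a9 was lower in Ptip_KO, at 383 and 216 CPM against 714 and 1242 in WT. Elane was also lower, at 797 and 955 CPM against 1008 and 1338, and limma called neither. The 2 B cell markers summed to 1.32 to 7.14 CPM and 2 T cell markers to at most 0.495 CPM, with Cd3e at 0 in Ptip_KO replicate 1. The part of these cells in the values of the Trim genes was not tested, and in bulk RNA fewer cells of a type and less RNA per cell cannot be told apart. WT replicate 2 also stood apart by 298 CPM of Xist, against at most 0.0814 CPM in the other 3 libraries, and by 0.101 CPM of the Y-linked gene Ddx3y, against 69.1 to 89.6 CPM, so that sex-linked RNA differed within WT. For this reason the Trim values are given for each library and the differences were recomputed without it.

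The promoters of relatives that did not change together are shown. Those of the Trim5 and Trim12 genes, and of Trim30a and Trim30d, are closely alike, and the less alike Trim34 pair is given for comparison. Each runs from 250 bases before to 50 bases after the RefSeq start, on the strand of the gene (GRCm38.p6, the C57BL/6J reference), and RefSeq windows matched 9 of the 10 genes. Capitals mark matches to GAAANNGAA, the core of the interferon-stimulated response element, which all lie on the opposite strand and so read as the reverse complement. The lines give, in turn, the Trim5 and Trim12 promoters at chr7:104288057-104288356, chr7:104315446-104315745 and chr7:104353300-104353599, the Trim30 promoters at chr7:104465144-104465443 and chr7:104507800-104508099, all on the minus strand, and the Trim34 promoters at chr7:104244207-104244506 and chr7:104329221-104329520 on the plus strand.
Trim5: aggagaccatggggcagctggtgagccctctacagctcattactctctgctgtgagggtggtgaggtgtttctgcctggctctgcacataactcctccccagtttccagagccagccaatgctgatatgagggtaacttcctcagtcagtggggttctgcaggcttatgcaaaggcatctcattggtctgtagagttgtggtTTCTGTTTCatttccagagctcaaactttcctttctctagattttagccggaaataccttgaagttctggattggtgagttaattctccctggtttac
Trim12a: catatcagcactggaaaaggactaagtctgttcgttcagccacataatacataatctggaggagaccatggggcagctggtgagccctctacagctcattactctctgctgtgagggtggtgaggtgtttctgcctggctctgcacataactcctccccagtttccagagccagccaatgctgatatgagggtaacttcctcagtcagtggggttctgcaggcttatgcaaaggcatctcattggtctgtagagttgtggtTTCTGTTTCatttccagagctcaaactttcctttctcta
Trim12c: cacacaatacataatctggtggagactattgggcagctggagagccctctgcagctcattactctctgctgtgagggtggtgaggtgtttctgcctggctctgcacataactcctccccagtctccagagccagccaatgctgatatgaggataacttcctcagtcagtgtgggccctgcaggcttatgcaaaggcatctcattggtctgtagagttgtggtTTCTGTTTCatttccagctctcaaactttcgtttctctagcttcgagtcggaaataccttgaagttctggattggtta
Trim30a: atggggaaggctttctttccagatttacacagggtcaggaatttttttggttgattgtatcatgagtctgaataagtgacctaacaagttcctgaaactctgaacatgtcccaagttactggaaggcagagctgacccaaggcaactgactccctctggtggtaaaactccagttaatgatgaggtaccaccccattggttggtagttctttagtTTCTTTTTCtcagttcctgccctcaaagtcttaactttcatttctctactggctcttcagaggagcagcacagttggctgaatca
Trim30d: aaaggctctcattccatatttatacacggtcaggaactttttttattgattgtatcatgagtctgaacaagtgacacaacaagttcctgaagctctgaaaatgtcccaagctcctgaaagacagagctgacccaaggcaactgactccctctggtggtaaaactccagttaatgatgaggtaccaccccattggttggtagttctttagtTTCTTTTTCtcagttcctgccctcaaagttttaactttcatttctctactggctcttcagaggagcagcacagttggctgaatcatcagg
Trim34a: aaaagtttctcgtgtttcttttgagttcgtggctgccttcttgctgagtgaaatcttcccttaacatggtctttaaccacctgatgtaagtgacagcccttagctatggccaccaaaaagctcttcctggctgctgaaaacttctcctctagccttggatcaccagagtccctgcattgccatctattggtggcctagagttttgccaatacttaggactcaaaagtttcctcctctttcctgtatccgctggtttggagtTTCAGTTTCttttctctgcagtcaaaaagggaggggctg
Trim34b: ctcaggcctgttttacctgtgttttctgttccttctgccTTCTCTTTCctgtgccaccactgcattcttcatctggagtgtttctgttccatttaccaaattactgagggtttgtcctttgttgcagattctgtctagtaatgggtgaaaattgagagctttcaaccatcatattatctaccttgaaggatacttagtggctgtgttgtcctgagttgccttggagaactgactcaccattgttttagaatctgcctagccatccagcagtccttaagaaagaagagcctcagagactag

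Trim5 and Trim12a share a run of 241 identical bases, which begins at base 1 of the Trim5 window and base 60 of the Trim12a window. Trim12c, which was lower in Ptip_KO, matched Trim12a at 247 of 260 aligned bases and Trim5 at 93.9% of 280. Trim30a and Trim30d, also of opposite direction, matched at 93.6% of 295 aligned bases and shared a run of 118 identical ones. Trim34a and Trim34b matched at only 59.7% of 258 aligned bases, although their coding sequences are nearly the same. GAAANNGAA, searched on both strands, was found in 8 of 10 windows, which belong to 7 of the 9 genes (Trim30a has 2 windows), against 8.56% of all 32851 promoter windows of this length. Its match began 48 bases before the start in Trim5, 28 before in Trim12c, 35 before in Trim30a and 40 before in Trim30d, and 12 bases into the transcript in Trim12a and Trim34a. In Trim34b it began 211 bases before the start. The 2 genes with no match were Trim30b and Trim30c. The Trim30b window, chr7:104358597-104358896 on the minus strand, lies inside the annotated gene (104355382 to 104369884). It matched the other Trim30 windows at only 53.8% to 59.8% of aligned bases. A Trim30b start further upstream was not searched. A second motif, TTCNNNGAA (the gamma-activated sequence), was found only in the Trim30c window, against 8.30% of all windows. Genes with the first motif included Trim34a, Trim5, Trim12a and Trim30d, which limma called higher in Ptip_KO. They also included Trim12c, Trim30a and Trim34b, which were lower in both Ptip_KO libraries but not called by limma. Trim30c, called lower, had no match to it. Nothing is read from this, as the cluster was chosen by this contrast. A match describes these letters and is no evidence of binding.

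Trim5 and Trim12a, mouse relatives of the primate restriction factor TRIM5, were barely detected in the WT libraries. Trim12a (ENSMUSG00000066258.13, chromosome 7, 104299894 to 104315466, minus strand) had 16.9 and 17.0 CPM in Ptip_KO replicates 1 and 2, from 1286 and 1191 reads, and 0.109 and 0.406 CPM in WT replicates 1 and 2, from 8 and 32 reads. Trim5 (ENSMUSG00000060441.15, 104263386 to 104288094, minus strand) had 6.53 and 6.99 CPM in Ptip_KO, from 497 and 490 reads, against 0.0678 and 0.254 CPM in WT, from 5 and 20 reads. Both Ptip_KO libraries stood far above both WT libraries, and of the WT pair replicate 2 was the higher for each gene. Mean CPM was 65.9-fold higher in Ptip_KO for Trim12a and 42.1-fold higher for Trim5. These ratios rest on few WT reads: without WT replicate 1 they were 41.8 and 26.7, and without WT replicate 2 they were 156 and 99.7. On the scale of log2(CPM + 1), which understates changes of low genes, the differences of Ptip_KO from WT were 3.85 ± 0.170 for Trim12a and 2.75 ± 0.170 for Trim5 (SE, limma, n = 2 and 2).

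Trim12c (ENSMUSG00000057143.15, 104338754 to 104353362, minus strand), whose product is also close to TRIM5, was abundant in all libraries. Its levels were 46.7 and 44.9 CPM in Ptip_KO, against 55.96 and 56.1 in WT. Neither Ptip_KO library reached the lower WT value, and the log2 difference was -0.29 ± 0.0846. In CPM, Trim12c was 10.2 lower in the Ptip_KO mean, while Trim12a was 16.7 higher and Trim5 6.60 higher.

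Among the Trim30 genes, Trim30d was higher in Ptip_KO and the other 3 were not. Trim30d (ENSMUSG00000057596.13, 104470014 to 104507849, minus strand), the copy closest to Trim30a, had 11.4 and 13.3 CPM in Ptip_KO, from 867 and 931 reads, against 1.07 and 0.888 CPM in WT, from 79 and 70 reads. The groups were well apart, with a mean 12.6-fold higher in Ptip_KO and a log2 difference of 2.75 ± 0.152. Trim30a (ENSMUSG00000030921.17, 104409025 to 104465193, minus strand), which encodes the TRIM30 protein studied in macrophages, had the highest CPM of the cluster, at 109 and 113 in Ptip_KO and 137 and 121 in WT. The groups did not overlap, but the WT replicates differed from each other by more than the nearer one differed from Ptip_KO, and the log2 difference was -0.21 ± 0.0966.

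Trim30c (ENSMUSG00000078616.2, 104382065 to 104400837, minus strand) was the lowest of the Trim30 genes in Ptip_KO in CPM. It had 1.31 and 1.10 CPM in Ptip_KO, from 100 and 77 reads, against 3.65 and 3.40 CPM in WT, from 269 and 268 reads. The WT mean was 2.92 times the Ptip_KO mean, with a log2 difference of -1.04 ± 0.159. Trim30b (ENSMUSG00000052749.9, 104355382 to 104369884, minus strand) had 4.99 and 3.70 CPM in Ptip_KO, against 3.61 and 7.44 in WT. The groups overlapped, and the difference of -0.23 ± 0.308 turned to 0.20 when WT replicate 2 was left out.

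The 2 Trim34 genes split as well. Trim34a (ENSMUSG00000056144.14, 104244457 to 104262234, plus strand) had 11.7 and 13.9 CPM in Ptip_KO, against 4.40 and 4.01 in WT. Its mean was 3.04-fold higher in Ptip_KO, with groups well apart and a log2 difference of 1.40 ± 0.140. Trim34b (ENSMUSG00000090215.9, 104329471 to 104336909, plus strand) had 2.60 and 3.38 CPM in Ptip_KO, against 4.37 and 3.88 in WT. Here Ptip_KO was below WT without overlap, at a log2 difference of -0.37 ± 0.167. Trim3 (ENSMUSG00000036989.16, 105604463 to 105633571, minus strand), a TRIM protein with NHL repeats in place of the B30.2/SPRY domain, was at 25.5 and 26.9 CPM in Ptip_KO, against 24.7 and 22.0 in WT, and differed by 0.16 ± 0.106.

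**Figure D1:**
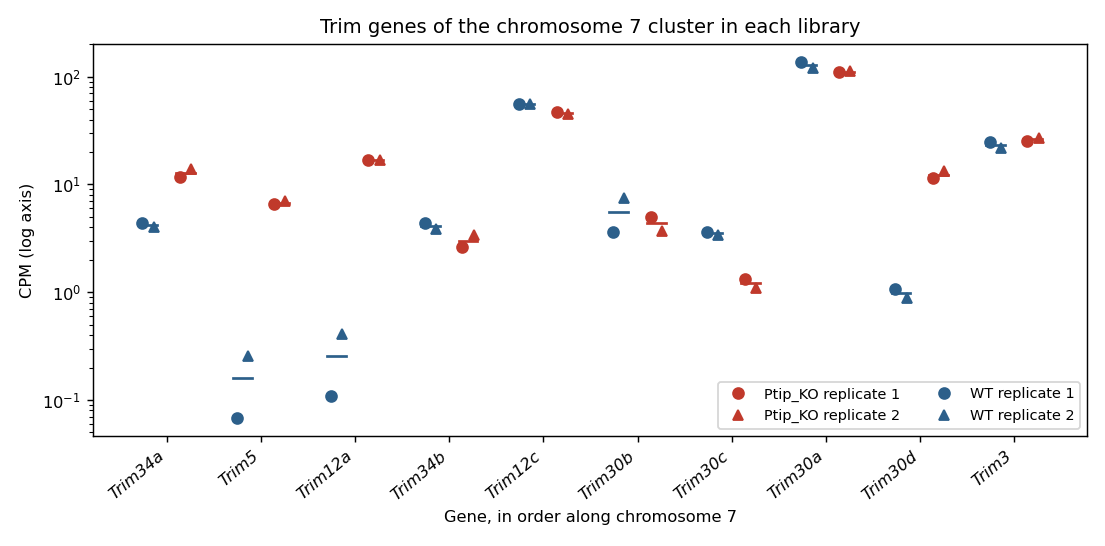
CPM of each gene in each of the 4 libraries, on a log axis, with genes in order along chromosome 7. Circles are replicate 1, triangles replicate 2, red Ptip_KO and blue WT, and bars are group means. Trim34a, Trim5, Trim12a and Trim30d lie higher in both Ptip_KO libraries, Trim5 and Trim12a by over an order of magnitude.

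All 10 genes had at least 1 CPM in at least 2 libraries and entered the limma fit, but Trim5, Trim12a and Trim30d did so only through Ptip_KO: both WT libraries were under 1 CPM for Trim5 and Trim12a, and WT replicate 2 was for Trim30d. At an adjusted p under 0.05, 4 of the 10 were called higher (Trim34a, Trim5, Trim12a and Trim30d) and 1 lower (Trim30c). The call of Trim30c was lost without either Ptip_KO library. Over all 12357 genes tested, 6.29% were called, 2.43% higher and 3.86% lower. In 9 of the 10 the groups did not overlap, 5 with Ptip_KO above and 4 below, against 55.1% of all genes tested. The count test of edgeR on the recovered reads called the same 5 genes, against 5.34% of all genes, and DESeq2 called these and Trim12c, against 15.4%. As the cluster was chosen by this contrast, nothing is read from these counts. The median log2 difference over the 10 genes was -0.02, beside 0.003 over all genes tested.

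Per kilobase of exon, counted over all annotated exons of a gene, the order of levels shifted between genotypes. This length grows with the number of annotated transcripts, so the order of different genes depends on it. For Trim12a it was 5781 bases, beside 1486 in the transcript with its longest coding sequence. In WT, mean CPM per kb ran from Trim30a (31.5) through Trim12c (15.0), Trim3 (5.11), Trim34b (2.23), Trim30c (2.05), Trim34a (1.62), Trim30b (0.734) and Trim30d (0.261) to Trim12a and Trim5 (0.044 each). Trim34b overlapped Trim30c in WT, as did Trim12a with Trim5. In Ptip_KO the order was Trim30a (27.1), Trim12c (12.2), Trim3 (5.74), Trim34a (4.93), Trim30d (3.28), Trim12a (2.93), Trim5 (1.83), Trim34b (1.62), Trim30c (0.703) and Trim30b (0.577). Trim5 overlapped Trim34b there, and Trim30c overlapped Trim30b. On this scale Trim30a, Trim12c and Trim3 thus kept the first 3 places in both genotypes. None of Trim34a, Trim5, Trim12a and Trim30d reached these 3 on it, and an order by transcript length was not computed.

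The coding sequences fall into the same 3 subfamilies. In the longest coding transcript of each gene (GENCODE M21), Trim34a and Trim34b were identical at 98.2% of aligned bases, Trim5 and Trim12a at 97.1%, Trim5 and Trim12c at 96.6%, and Trim12a and Trim12c at 96.4%. The Trim30 genes were less alike, from 83.2% for Trim30c and Trim30a to 90.2% for Trim30a and Trim30d. Trim12a has a coding sequence of only 891 bases, beside 1491 in Trim5 and in Trim12c, and Trim30b one of 609 bases.

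**Figure D2:**
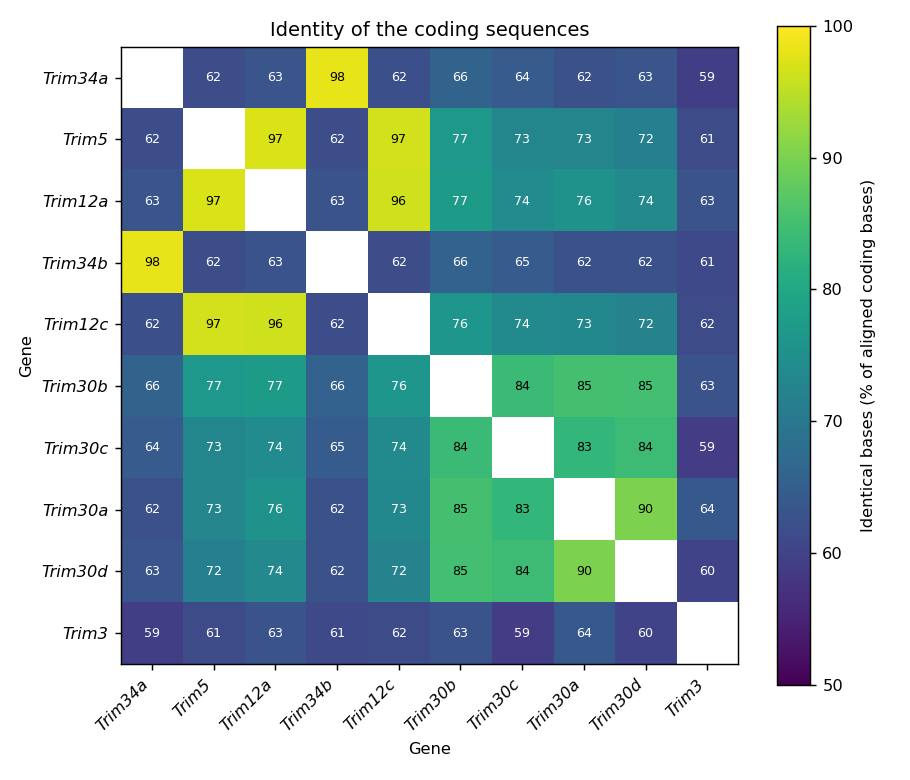
Percent of identical bases in pairwise global alignments, with gaps at the ends not penalised, of the coding sequences of the 10 genes. Genes are in order along the chromosome on both axes. The brightest cells are the Trim34 pair (98.2%), the Trim5 and Trim12 genes (96.4% to 97.1%) and Trim30a with Trim30d (90.2%). Trim3 is distant from all others (59.2% to 63.7%). The Trim34 pair is nearly as far from the Trim5, Trim12 and Trim30 genes (61.8% to 66.0%).

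How reads that match several copies were assigned is not given in the sources used here, so it was asked how much of each gene can be told apart. Of all 50-base words in the exons of Trim34a only 40.3% occur in no other annotated gene, and of Trim34b 43.2%, so the counts of these 2 genes are uncertain. They share 1049 such words with each other. For Trim5 the share was 63.4% and for Trim12c 66.3%, with 889 words common to both, so some reads of Trim5 could belong to Trim12c. Trim12a was mostly distinct (89.5%), as were Trim30d (92.5%), Trim30a (94.0%), Trim30b (98.5%), Trim30c (99.3%) and Trim3 (100%). With words of 100 bases the lowest value was 61.0%, for Trim34a. The reference used here is C57BL/6J, and differences from the 129 copies of these genes were not analysed.

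Sums over close relatives do not change when reads move among the summed copies. They can change by reads of copies outside the sums, such as Gm47248, which shares 532 of the 50-base words of Trim34a. Gm4992 shares 227 of those of Trim5. If reads with several matches were left out of the counts, a sum also depends on which copy was expressed. The share of distinct words differs between copies, as in Trim12a (89.5%) and Trim12c (66.3%). Trim34a and Trim34b together had 14.3 and 17.2 CPM in Ptip_KO, against 8.76 and 7.89 in WT, with both Ptip_KO libraries above WT and a ratio of means of 1.89. Trim5, Trim12a and Trim12c together had 70.1 and 68.9 CPM in Ptip_KO, against 56.1 and 56.7 in WT, or 69.5 ± 0.867 against 56.4 ± 0.428 (SD, n = 2). The gap of 13.1 CPM was many times the spread between replicates. Moving reads among these 3 genes would not alter it, but leaving out reads with several matches could. Without Trim5, the sum of Trim12a and Trim12c was 62.7 ± 1.20 against 56.3 ± 0.296 CPM. The 4 Trim30 genes together had 127 and 131 CPM in Ptip_KO, against 146 and 133 in WT, 129 ± 2.94 against 139 ± 9.03, a gap close to the spread between the WT libraries. All 9 genes without Trim3 summed to 212 and 217 CPM in Ptip_KO, against 211 and 198 in WT. This total thus differed by only 0.07 in log2 ratio while its make-up changed.

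The shares within each set show this make-up. Trim34a gave 81.8% of the reads of its pair in Ptip_KO replicate 1 (95% Wilson interval 79.4% to 84.0%) and 80.4% in replicate 2, against 50.2% (46.3% to 54.0%) and 50.8% in WT. Of the reads of Trim5, Trim12a and Trim12c, Trim12a gave 24.1% and 24.7% in Ptip_KO, with intervals of 23.0% to 25.3% and 23.5% to 25.9%, and 0.193% and 0.715% in WT. Trim5 gave 9.31% and 10.2% in Ptip_KO and 0.121% and 0.447% in WT. Trim12c accordingly made up 66.6% and 65.2% of this set in Ptip_KO and 99.7% and 98.8% in WT. Of the Trim30 reads, Trim30d gave 8.96% and 10.1% in Ptip_KO and 0.735% and 0.667% in WT, and Trim30c gave 1.03% and 0.837% against 2.50% and 2.56%. Trim30a held 86.1% and 86.2% of its set in Ptip_KO and 94.3% and 91.2% in WT. These intervals cover counting error only. In every set the 2 replicates of a genotype lay closer to each other than to the other genotype, apart from Trim30b, at 3.93% and 2.82% in Ptip_KO and 2.48% and 5.60% in WT.

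**Figure D3:**
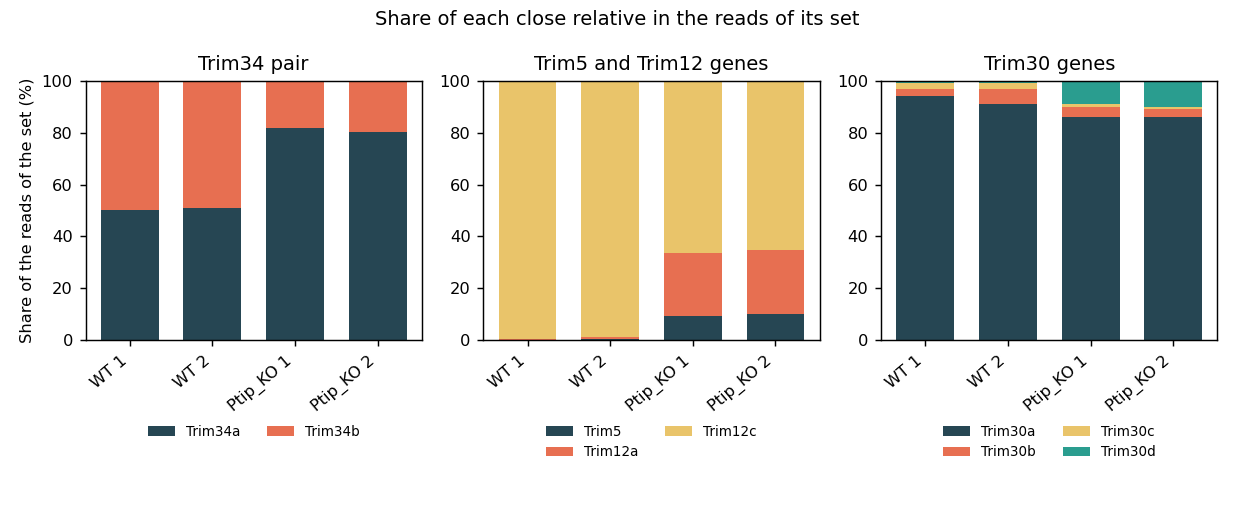
Share of reads (%) from each gene within the Trim34 pair, the Trim5 and Trim12 genes and the Trim30 genes, with 1 stacked bar per library. Trim34a, Trim5 with Trim12a, and Trim30d take larger shares in both Ptip_KO libraries than in both WT libraries.

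Along the chromosome, 9 of the genes span 263 kb from Trim34a to the end of Trim30d, with gaps of 1.15 to 14.0 kb, and Trim3 lies 1.10 Mb beyond. The 3 genes at one end, Trim34a, Trim5 and Trim12a, were higher in Ptip_KO. Then came 5 that were lower or overlapping, namely Trim34b, Trim12c, Trim30b, Trim30c and Trim30a, and Trim30d at the other end was higher again. The higher genes therefore did not form 1 block, and they lie on both strands.

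The 3 other genes of the table lie between Trim34a and Trim30d were all too low for the limma fit. Gm15133, an antisense transcript that overlaps the first part of Trim12a, had 0.355 and 0.371 CPM in Ptip_KO, from 27 and 26 reads, and 0 in both WT libraries, which makes it at least 8.92-fold higher when WT is set to 3 reads per library. The library kit keeps strand, but whether counting used it is not given in the sources used here, so reads of Gm15133 and Trim12a may not be separate. Gm16464, a processed pseudogene inside Trim30d, had 0.631 and 0.785 CPM in Ptip_KO, against 0.0407 and 0.0507 in WT. Both followed the Trim gene they overlap. Gm45471, a pseudogene between Trim30c and Trim30a, had 6 and 1 reads in Ptip_KO and 7 and 10 in WT.

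Around the cluster, 41 other measured genes lie between Trim34a and Trim3 or within 1 Mb of either, and 22 were tested. Of these 2 were called higher and 0 lower by limma, against 2.43% and 3.86% of all genes tested. The groups did not overlap in 7 with Ptip_KO above and 6 with Ptip_KO below, against 55.1% of all genes. At an unadjusted p under 0.05 there were 4 higher and 3 lower, but the share of all genes at this level was not computed. EdgeR called 2 higher and 0 lower, against 5.34% of all genes, and DESeq2 4 and 2, against 15.4%. Both called genes lie beyond Trim3. Gm1966, annotated as an unprocessed pseudogene, had 248 and 247 CPM in Ptip_KO, against 2.22 and 1.79 in WT (log2 difference 6.37 ± 0.111, limma adjusted p = 2.6e-05). Gvin1, a very large interferon-inducible GTPase whose close copies nearby could share its reads, had 3.73 and 3.90 CPM in Ptip_KO, against 0.0407 and 0.0507 in WT (2.20 ± 0.166, adjusted p = 0.00473), and it entered the fit only through Ptip_KO. Trim6, the Trim gene just before Trim34a, was named after its values were seen and was not called, at 1.01 and 1.26 CPM in Ptip_KO, against 0.570 and 0.735 in WT. Over the 22 genes the median log2 difference was 0.04.

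**Figure D4:**
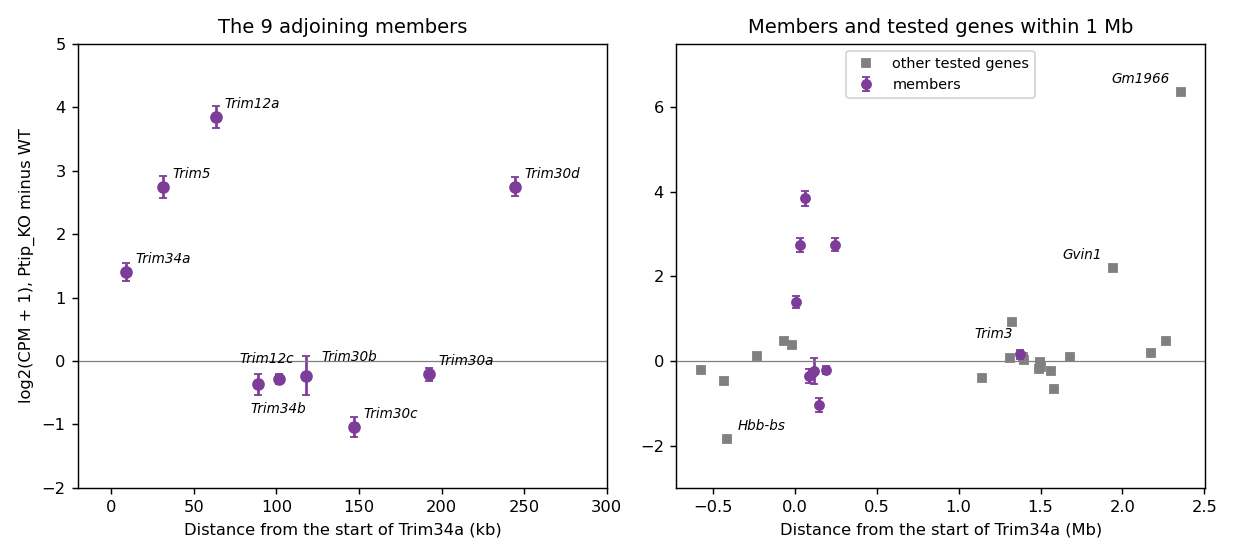
Difference of Ptip_KO from WT in log2(CPM + 1) against distance from the start of Trim34a, in kb for the 9 adjoining genes (left) and in Mb for all 10 and the 22 other tested genes (right). Bars are SE from limma and genes are drawn at their midpoints. Higher genes sit at both ends of the cluster (Trim34a, Trim5 and Trim12a, then Trim30d), and Gvin1 and Gm1966 lie beyond Trim3.

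Of 36 other Trim genes on this and other chromosomes, Trim6 among them, 32 were tested, and 1 was called higher and 1 lower by limma, against 6.29% of all genes tested. At an unadjusted p under 0.05 there were 8 higher and 1 lower, but the share of all genes at this level was not computed. The groups did not overlap in 18 with Ptip_KO above and 5 with Ptip_KO below, against 55.1% of all genes. The median log2 difference was 0.13, with 23 of 32 above 0, against 6244 of all 12357 genes tested. Trim14, an adaptor of the antiviral MAVS pathway, rose from 24.2 and 21.7 CPM in WT to 37.2 and 35.3 CPM in Ptip_KO (log2 difference 0.64, limma adjusted p = 0.028). Its call was lost without Ptip_KO replicate 1 (adjusted p = 0.128) or replicate 2 (adjusted p = 0.0826). Trim10, an erythroid TRIM protein, fell from 21.8 and 35.0 CPM in WT to 7.66 and 11.5 CPM in Ptip_KO (-1.46, limma adjusted p = 0.0394), in the direction of the red cell markers above. That call was lost by edgeR (adjusted p = 0.0619), after scaling to a common sum (0.076) and without Ptip_KO replicate 1 (0.0533). Neither change came near those of Trim5, Trim12a or Trim30d in log2 difference. That of Trim10 was, however, similar in size to that of Trim34a (1.40), in the opposite direction.

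Because many Trim genes respond to interferon, a list of 29 interferon genes was set beside them. All 29 were tested, and 3 were called higher and 1 lower by limma, against 2.43% and 3.86% of all genes tested. At an unadjusted p under 0.05 there were 6 higher and 2 lower, but the share of all genes at this level was not computed. Of the 29, 16 were above 0, against 6244 of all 12357 genes tested, and the median log2 difference was 0.11. Oas1a, which makes the activator of RNase L, rose from 16.2 and 15.0 to 23.4 and 25.9 CPM (0.63, limma adjusted p = 0.0347). Ifit2, which restrains translation of foreign RNA, rose by 0.55 (limma adjusted p = 0.0357), and Ifih1, the RNA sensor MDA5, by 0.51 (limma adjusted p = 0.0473). Rsad2, the antiviral enzyme viperin, went the other way, from 30.0 and 58.9 CPM in WT to 7.65 and 14.2 CPM in Ptip_KO (-1.91, limma adjusted p = 0.0479). The calls of Oas1a, Ifit2 and Ifih1 were each lost when either Ptip_KO library was left out, with adjusted p from 0.0887 to 0.259, and that of Rsad2 without Ptip_KO replicate 1 (0.055). Scaling to a common sum ended the calls of Ifit2 (adjusted p = 0.0505), Ifih1 (0.0578) and Rsad2 (0.0838), edgeR those of Ifih1 (0.0541) and Rsad2 (0.0738), and a pseudocount of 5 the same pair (0.0513 and 0.0529). The regulators Irf3, Irf7 and Irf9 were not called, and Irf9 had 102 and 116 CPM in Ptip_KO and 104 and 97.6 in WT.

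The TAK1 and NLRP3 genes, on whose proteins TRIM5 and TRIM30 act, gave no call. Of 10 listed genes 9 were tested, and 0 were called by limma, 0 by edgeR and 0 by DESeq2, with 0 at an unadjusted p under 0.05. Their median log2 difference was 0.02. Map3k7, which encodes TAK1, had 105 and 89.5 CPM in Ptip_KO and 97.8 and 89.0 in WT, so the groups overlapped. Tab2, an adaptor of TAK1 and a known target of TRIM30, had 156 and 135 CPM in Ptip_KO and 159 and 138 in WT.

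Over the 4 libraries, the genes whose centred log2(CPM + 1) profile lay nearest to that of Trim12a by Euclidean distance were Nlrp1b (0.44), Gm47283 (0.72), Gm3375 (0.78), Gm15459 (0.91) and Trim5 (1.10). Nlrp1b, an inflammasome sensor on chromosome 11, had 67.1 and 66.5 CPM in Ptip_KO, against 4.60 and 3.68 in WT. Gm3375, a processed pseudogene near the other end of chromosome 7, had 8.16 and 7.36 CPM in Ptip_KO, against 0 and 0.0507 in WT. Gm47283, on chromosome Y, had 20.3 and 18.6 CPM in Ptip_KO, against 1.13 and 0.418 in WT. Its WT values are limited by replicate 2, which had only 0.101 CPM of the Y-linked gene Ddx3y. Gm15459, a processed pseudogene on chromosome 5, varied between Ptip_KO replicates, at 391 and 835 CPM, against 46.4 and 36.1 in WT. Trim12a was chosen for its pattern, so these distances are a description over 4 libraries.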

How the data were processed

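Poly(A) libraries were made with a strand-keeping kit, and per the submitters' processing notes the tools were edgeR 3.8.6, HTSeq 0.6.0 and TopHat2 2.0.10 and the build mm10, with no role given. Whether counting used strand, the read length and the treatment of reads with several matches are not given in the sources used here. The authors deposited a normalised signal per gene, which they call edgeR CPM for effective library sizes. Each of the 4 columns was assigned by its name, that of WT replicate 2 through the sample's description. Values were whole multiples of 1 read within 0.01 read for 100% of genes, so whole reads were recovered.

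The 12357 genes that reached 1 CPM in 2 or more libraries were fitted with limma 3.58.1 on log2(CPM + 1), trended prior, 2-sided, genotype only, with Benjamini-Hochberg adjustment at 0.05. Alternatives were edgeR 4.0.16 and DESeq2 1.42.0 on the recovered reads, other pseudocounts, filters and scalings, a block for the replicate number, and leaving out each library. The fits were tested on simulated data. Of 18276 identifiers 18249 had a symbol, and positions follow GENCODE M21 (GRCm38, which mm10 denotes), where 92.2% carried the same version. Alignments used Biopython 1.88. The genes of the cluster and all lists were chosen with earlier results of these data known. Named are every gene of the cluster, Paxip1, up to 6 other Trim genes or neighbours and up to 4 genes of each list past the threshold, and the 5 genes nearest to Trim12a. Regulators, adaptors, untested genes inside the cluster and Trim6 were named after their values were seen.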

Additional observations from a re-analysis of the deposited data

How the results depend on the processing

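The 4 genes of the cluster called higher by limma were called under all 13 alternatives run, but the log2 differences moved. With pseudocounts of 0.25 and 5 they were 5.15 and 2.06 for Trim12a, 4.13 and 1.19 for Trim5, 3.36 and 1.53 for Trim30d, and 1.55 and 0.95 for Trim34a. With edgeR and DESeq2 they were 6.02 and 6.02, 5.36 and 5.38, 3.66 and 3.66, and 1.61 and 1.61 for the same genes. The count called lower went from 1 to 2 with DESeq2, which added Trim12c (-0.29, adjusted p = 0.0365), and to 0 with a filter at 5 CPM, where Trim30c was not tested. With 1 library left out it was 0 to 1: Trim30c was -1.11 (limma adjusted p = 0.0699) without Ptip_KO replicate 1 and -0.97 (0.109) without replicate 2. Trim30b, -0.23 with all libraries, ranged from -0.67 without WT replicate 1 to 0.20 without WT replicate 2. Scaling to a common sum gave log2 ratios of 0.21 for Trim12a with Trim12c and 0.35 for Trim5, Trim12a and Trim12c, against 0.16 and 0.30.

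Over all genes, 777 calls became 1906 with DESeq2 and 452 to 1620 with 1 library left out. The labels give both genotypes replicate numbers 1 and 2 but no shared animal or batch, and the deposited column of WT replicate 2 carries the number 3. The replicate differences of the genotypes correlated with r = 0.33 across 12357 genes, which are not independent. With the replicate block, 1721 genes were called, and of the cluster the same 4 higher and 1 lower. For other Trim genes the higher count was 2 with DESeq2, 2 with the block and 0 to 2 with 1 library left out, and the lower count was 0 with a common sum, 0 with edgeR and 0 to 1 with 1 library left out. For neighbours the higher count was 4 with DESeq2, 1 at 5 CPM, 5 with no filter and 2 to 5 with 1 library left out, and the lower count 2 with DESeq2, 3 with the block and 0 to 2 with 1 library left out. For interferon genes the higher count was 5 with DESeq2, 1 with a common sum and 0 to 7 with 1 library left out, and the lower count 0 with a common sum, 0 with edgeR, 0 with a pseudocount of 5 and 0 to 1 with 1 library left out. The cause of these shifts was not tested. Among single genes and sequence shares, 221 values kept their direction and side of the threshold or, for the share of words of Trim3, did not move. Of the rest, 21 lost their call, 10 shares of words or promoters moved with word length or motif, 1 gained a call (Trim12c) and 1 reversed (Trim30b). Depth limits the Trim5 and Trim12a ratios, which rest on 5 to 32 WT reads per library.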
